A study of Mus musculus with 17 samples.

Results

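The miR-125 and miR-351 arms are the mature microRNAs cut from the hairpins of Mir125a, Mir125b-1, Mir125b-2 and Mir351. All 7 arms named for miR-125a, miR-125b and miR-351 were taken from the 1487 small RNAs (smRNAs) of the count table, and all 7 passed the filter on low counts. The 5p arms are mmu-miR-125a-5p, mmu-miR-125b-5p and mmu-miR-351-5p, and the 3p arms are mmu-miR-125a-3p, mmu-miR-125b-1-3p, mmu-miR-125b-2-3p and mmu-miR-351-3p, written below without the species prefix. The set was chosen because miR-125a-3p and miR-351-5p are among the most abundant smRNAs of the table. Their abundance relative to other smRNAs is therefore given as a description without a test, and only differences between groups of libraries are tested. The libraries were made from fecal exosomes, which are membrane vesicles shed by cells, of IL-10 KO mice on the C57BL/6J background. These mice lack interleukin 10 and can develop spontaneous gut inflammation. They arrived at 4 weeks of age and were housed singly, and the labels do not give the age at either time point. The start-point group holds 10 libraries, from 7 male and 3 female mice, and the end-point group 7 libraries, 5 from males and 2 from females. All libraries share the deletion, and the labels name no drug or other agent. Of the 10 mice, 6 have libraries at both time points, and 2 of the end-point libraries carry the label of mouse 1.

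A microRNA hairpin is cut into a duplex of 2 strands, the 5p and the 3p arm, and usually 1 of them is kept by an Argonaute protein while the other is degraded. The kept strand recognises messenger RNAs mainly through its seed, bases 2 to 8. The miR-125 family is the vertebrate counterpart of the worm developmental regulator lin-4, and its 5p arms are the strands usually described as guides, in blood cell development, immune signalling and differentiation among other settings.

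The sequences show why the arms fall into different sets. All 3 arms on the 5p side share 1 seed, given in capitals below (mature sequences from RefSeq on GRCm38.p6, 5′ to 3′):
miR-125a-5p: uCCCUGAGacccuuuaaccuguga
miR-125b-5p: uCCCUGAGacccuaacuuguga
miR-351-5p: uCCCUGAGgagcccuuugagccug
The first 13 bases of miR-125a-5p and miR-125b-5p are identical, whereas miR-351-5p shares only the first 8 with each of them. The table also lists 2 other miRNAs with this seed:
miR-6367: uCCCUGAGacccugguucagga
miR-6394: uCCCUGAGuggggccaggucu

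On the 3p side the 4 arms have 4 different seeds, and none of the other mature miRNAs in the RefSeq table shares one of them. Away from the seed, the 3p arms of the 3 miR-125 hairpins are alike and hold the same 8 bases, in capitals here, from base 12 on, whereas miR-351-3p does not hold them:
miR-125a-3p: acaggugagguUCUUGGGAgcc
miR-125b-1-3p: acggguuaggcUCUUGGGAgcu
miR-125b-2-3p: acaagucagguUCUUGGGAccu
miR-351-3p: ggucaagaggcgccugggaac
Between miR-125a-3p and miR-125b-2-3p the shared run is 12 bases long, and 18 of 22 positions are identical. The hairpin of Mir125a, with both arms in capitals, shows the 2 strands that the ratios below compare:
Mir125a: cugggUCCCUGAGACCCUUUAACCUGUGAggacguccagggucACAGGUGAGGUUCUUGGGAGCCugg

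On GRCm38.p6, Mir125a lies on chromosome 17 at 17830812 to 17830879 on the plus strand and overlaps an annotated exon of Spaca6. Mir125b-1 lies on chromosome 9 at 41581926 to 41582002, within introns of the non-coding genes 3110039I08Rik and Gm49317 and overlapping an annotated exon of Gm28119. Mir125b-2 lies on chromosome 16 at 77646273 to 77646343, within an intron of the non-coding gene Mir99ahg and overlapping an annotated exon of C130023A14Rik. Mir351 lies on chromosome X at 53053255 to 53053353 on the minus strand, between other miRNA genes and outside any annotated host gene. The mature miR-125b-5p is the same from Mir125b-1 and Mir125b-2, so its counts cannot be divided between them.

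Library totals ran from 32320 to 178075 counts, so the limit that a count of 0 allows (3 counts) lay between 16.8 and 92.8 counts per 1000000 library counts (CPM). The 3 end-point libraries under 75000 counts (libraries 1, 3 and 7) were shallower than every start-point library, where the lowest total was 87527. Of 9 epithelial miRNAs, 8 were in the table and none was at 0 in every library, which alone does not show an intestinal origin. Their summed level ran from 3226 to 19689 CPM at the start-point and from 2970 to 38181 CPM at the end-point. The 4 leukocyte miRNAs in the table summed to 387 to 3361 CPM and 237 to 3114 CPM, the 2 red cell miRNAs to 149 to 1006 CPM and 12.4 to 530 CPM, and the 3 muscle miRNAs to 400 to 2169 CPM and 334 to 12136 CPM. These sums hide unlike members. In the edgeR test below, 3 of the 8 epithelial miRNAs were called higher at the end-point and 3 lower, against 17.4% and 16.3% of all tested smRNAs. The highest epithelial and muscle sums were mostly 1 miRNA each, miR-200b-3p at 35672 CPM and miR-143-3p at 11776 CPM. The highest leukocyte and red cell sums, both in start-point library 1, were also mostly 1 miRNA each. These were miR-142a-3p at 2858 CPM and miR-486a-5p at 1006 CPM. In feces, fewer cells of a type and less RNA released per cell cannot be told apart.

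Among the 7 arms, miR-125a-3p and miR-351-5p stood far above the others, the first a 3p arm and the second a 5p arm. They held ranks 3 and 4 of all 1487 smRNAs by mean CPM, with 1.72% and 1.61% of all counts. A read covers a whole mature miRNA, so CPM was not divided by length. The mean over the 17 libraries was 17916 CPM for miR-125a-3p and 17833 CPM for miR-351-5p. Next came miR-125b-5p with 1378 CPM (rank 120) and miR-125b-2-3p with 1145 CPM (rank 152). The lowest 3 were miR-125b-1-3p with 465 CPM (rank 414), miR-351-3p with 335 CPM (rank 534) and miR-125a-5p with 111 CPM (rank 1149). The library values of every pair of neighbours in this order overlapped.

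**Figure D1:**
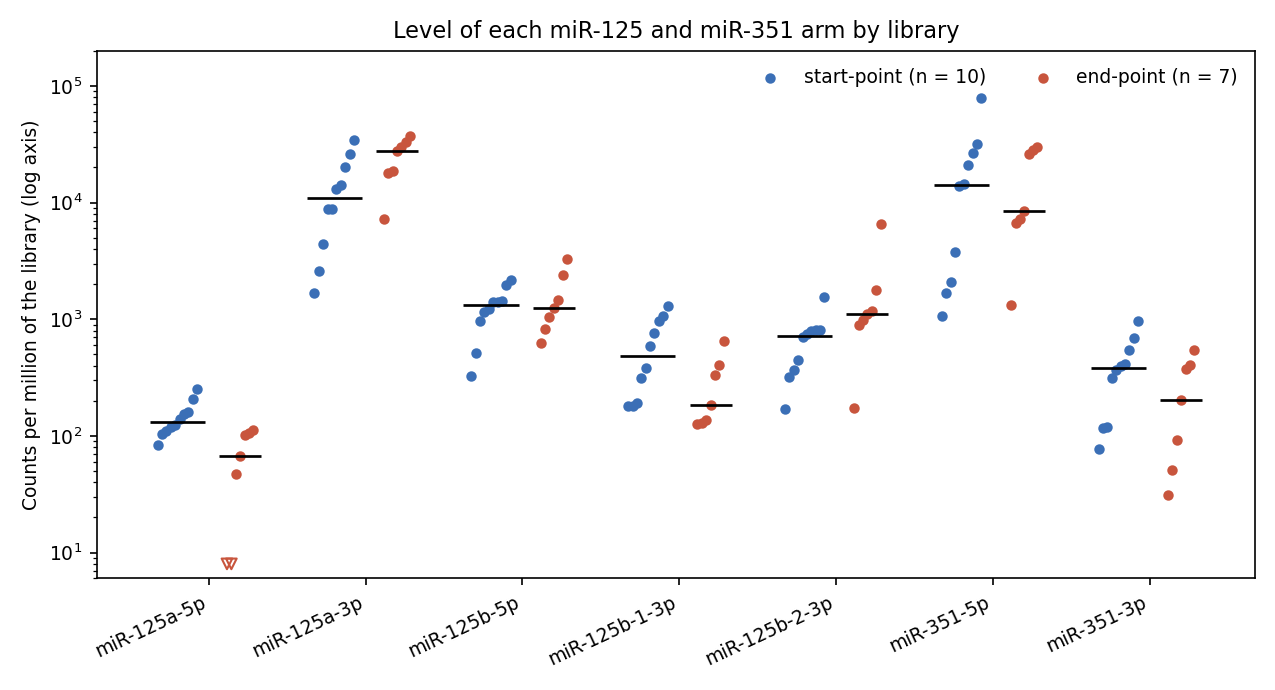
Level of each arm in every library, in CPM on a log axis, with start-point libraries in blue (n = 10) and end-point libraries in red (n = 7); black lines are medians and open triangles at the bottom are 2 libraries with a count of 0. The time points overlap for every arm, and miR-125a-3p and miR-351-5p lie above the other 5 arms in most libraries.

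At the start-point miR-125a-3p ran from 1664 to 34315 CPM with a median of 10941.5 CPM. Its end-point libraries ran from 7216 to 36877 CPM with a median of 27659.8 CPM. The groups overlapped, but 6 of 7 end-point libraries lay above the start-point median. It was among the 10 most abundant smRNAs in 5 of 10 start-point libraries and 6 of 7 end-point libraries. The lowest values were in start-point libraries 6, 7 and 1, at 1664, 2583 and 4374 CPM, and end-point library 2 was the lowest of its group.

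The abundant 5p arm, miR-351-5p, varied more. Start-point libraries ran from 1058 to 78273 CPM with a median of 14214 CPM, and end-point libraries from 1326 to 30175 CPM with a median of 8542 CPM. The end-point range lay inside the start-point range. In start-point library 2 it was the most abundant smRNA of all, with 7.83% of the counts. The 3 start-point libraries lowest in miR-125a-3p were also the 3 lowest in miR-351-5p, at 1058, 1675 and 2093 CPM. The same 3 libraries had the highest leukocyte sums of that time point, at 2338 to 3361 CPM, and the part of this in the low values was not tested. At the end-point the 2 arms parted in library 4, where miR-125a-3p stood at 32794 CPM and miR-351-5p at its group's lowest.

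Summed over the shared seed, the 5p arms were mostly miR-351-5p. It held 49.5 to 98.4% of their CPM at the start-point and 49.5 to 96.3% at the end-point, with medians of 88.8% and 88.6%. Start-point libraries held 20855 ± 23444.5 CPM (SD, n = 10) of these arms together, against 17132 ± 12514 CPM (SD, n = 7) in end-point libraries. The 3p arms summed to 15036 ± 11248 CPM (SD, n = 10) and 26751.5 ± 11474 CPM (SD, n = 7), and miR-125a-3p held a median of 88.9% and 92.1% of it. No test is given for these sums over chosen members.

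The ratio of the 2 arms of 1 hairpin does not depend on how libraries are scaled. In miR-125a almost all counts came from the 3p arm, with 35815 counts of miR-125a-3p against 256 of miR-125a-5p over all libraries. This is the highest 3p share, 99.3%, among the 453 arm pairs of the table that held enough counts, where the median 3p share was 47.7% and the 3p arm held the majority in 211 pairs (46.6%). The 3p arm also led in the hairpins next to Mir125a, with 1961 counts against 332 in let-7e and 425 against 122 in miR-99b. The opposite held for miR-351, where the 3p arm had 653 counts against 33399 of the 5p arm, a share of 1.92% and rank 449 of 453. The 3p arms of miR-125b were between these extremes, at 25.4% for miR-125b-1 and 44.4% for miR-125b-2, each set against the shared miR-125b-5p. The set was chosen for the abundance of miR-125a-3p and miR-351-5p, so extreme shares of these arms can follow in part from the choice.

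The dominance of the 3p arm of miR-125a was present in every library. The lowest share was 91.2% (95% Wilson interval 86.0 to 94.6%) in start-point library 6, and in end-point libraries 1 and 3 no count of the 5p arm was found among 1022 and 574 counts. The intervals of these last 2 libraries began at 99.6% and 99.3%. In miR-351 the 5p arm led in all 17 libraries, with its lowest log2 ratio of 3p to 5p at -8.10 and its highest at -2.77. In miR-125b-1 the 3p arm led in 1 of 17 libraries, start-point library 10, and in miR-125b-2 in 5 of 17. Intervals cover counting error only.

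The balance between the arms of miR-125a moved further toward the 3p arm at the end-point. The log2 ratio of 3p to 5p counts (with 0.5 added to each) ran from 3.33 to 7.76 at the start-point with a median of 6.40. At the end-point it ran from 6.06 to 11.00 with a median of 8.59. The groups overlapped only through end-point library 2, which held the lowest end-point value, while the other 6 lay above every start-point library. None of the 4 hairpins had ratios that did not overlap between time points, as 3.31% of the tested pairs had. The means were 6.03 ± 1.47 (SD, n = 10) and 8.78 ± 1.57 (SD, n = 7), a difference of 2.76. An exact two-sided permutation test over all 19448 choices of libraries gave p = 0.0023 and an adjusted p of 0.0153 over the 453 pairs. Within mice the ratio was higher at the end-point in all 6, by 1.58 to 4.41. The exact sign-flip permutation test gave an adjusted p of 0.157, and 6 mice allow it no p under 0.03125. The share of the 453 pairs that moved in 1 direction in all 6 mice was not counted, so this is not read as particular to miR-125a. For mice 1 and 3 the differences draw on end-point libraries 1 and 3, which held no count of the 5p arm.

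The call of the miR-125a arm ratio belongs to a background in which 24.3% of the 453 pairs were called, 12.1% toward the 3p arm. It was not made without the 3 end-point libraries under 75000 counts, with a difference of 1.78 and an exact permutation adjusted p of 0.137, or with 5 counts added to each arm, with 1.70 and 0.0512. These libraries held 0 to 3 counts of miR-125a-5p, so their ratios depend on what is added to the counts. Male libraries only gave 2.80 with an exact permutation adjusted p of 0.141.

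The other hairpins did not pass. For miR-125b-1 the mean log2 ratio went from -1.24 ± 1.45 (SD, n = 10) in start-point libraries to -2.50 ± 0.71 (SD, n = 7) later, and its exact permutation adjusted p was 0.120. The difference was 0.70 for miR-125b-2 and -1.09 for miR-351, with exact permutation adjusted p of 0.513 and 0.283. The shared 5p arm enters both miR-125b ratios, so these 2 are not independent. In the hairpins next to Mir125a the difference was negative, -2.10 for let-7e and -1.42 for miR-99b, with exact permutation adjusted p of 0.119 and 0.177.

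**Figure D2:**
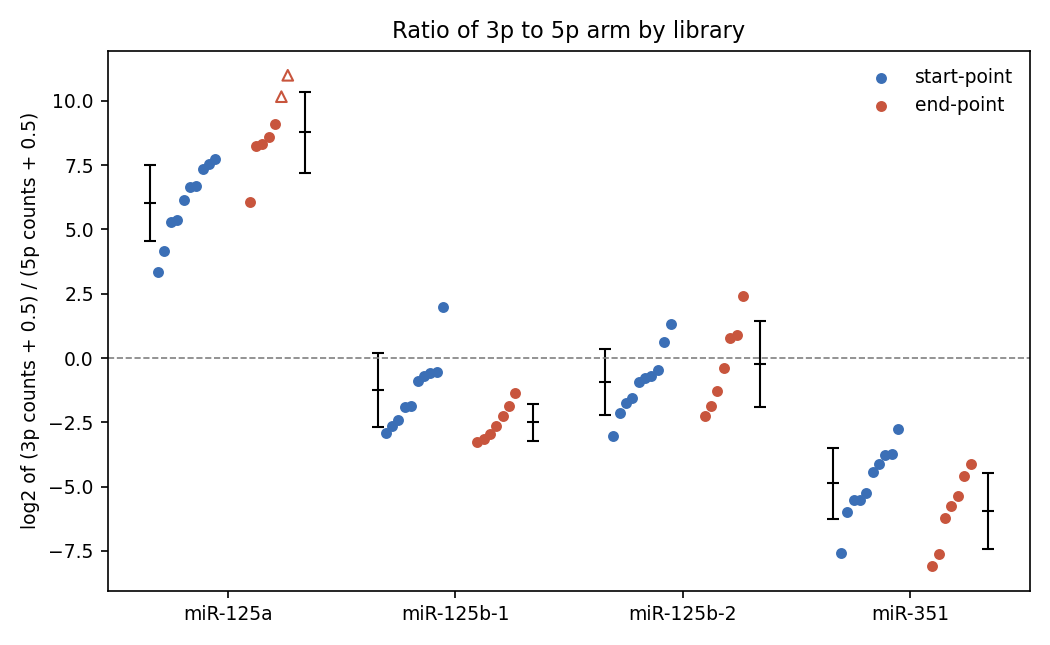
Log2 ratio of 3p to 5p counts (0.5 added to each) for the 4 hairpins, 1 point per library, with start-point in blue and end-point in red; black marks are the mean and SD, and open triangles are the 2 libraries with no count of miR-125a-5p. All miR-125a ratios lie above 3, all miR-351 ratios lie below -2, and 6 of 7 end-point ratios of miR-125a lie above every start-point ratio.

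Levels of the single arms were then compared between time points with edgeR's quasi-likelihood test across all 1270 smRNAs that passed the filter, with TMM scaling and Benjamini-Hochberg adjustment over all of them. The threshold for a call was an adjusted p of 0.05. Of the 7 arms 1 was called, miR-125b-2-3p, higher at the end-point, where 33.7% of all tested smRNAs were called and 17.4% were called higher. The median log2 fold change was 0.15 over the 7 arms and -0.18 over all tested smRNAs. With library totals alone in place of TMM factors the median of all smRNAs moved to -0.65, so each fold change is best read relative to that median.

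The called arm comes from the 3p side of the hairpin on chromosome 16. It ran from 169 to 1559.8 CPM at the start-point with a median of 724 CPM. End-point libraries ran from 173 to 6597 CPM with a median of 1114 CPM. The groups overlapped, 6 of 7 end-point libraries lay above the start-point median, and library 4 stood apart with 771 counts against 28 to 138 in the other end-point libraries. The means were 673 ± 390 CPM (SD, n = 10) and 1818 ± 2159.9 CPM (SD, n = 7). The log2 fold change was 2.20 ± 0.57 (SE), with an edgeR adjusted p of 0.00539. Within mice it was higher at the end-point in 5 of 6, with differences from -1.04 in mouse 3 to 4.03 in mouse 5.

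Without end-point library 4 the log2 fold change of miR-125b-2-3p was 0.97, with an edgeR adjusted p of 0.0797. That library also had the highest summed level of the leukocyte miRNAs among the end-point libraries, 3114 CPM against 237 to 797 CPM in the others. At the start-point, libraries 1, 6 and 7, highest in the leukocyte sum, held the lowest miR-125b-2-3p, at 323, 365 and 169 CPM. The sums differed in make-up between time points. Within them miR-223-3p reached 1737 CPM at the end-point and 277 CPM at the start-point, where miR-142a-3p reached 2858 CPM. A part of leukocyte RNA in the level of miR-125b-2-3p was not tested. With mouse identity as a block the log2 fold change was 1.67 and the edgeR adjusted p 0.145, in a fit that called 8.19% of smRNAs.

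The most abundant arm, miR-125a-3p, was not called, at 1.53 ± 0.61 (SE) on the log2 scale and an edgeR adjusted p of 0.0578. Its means were 13369.6 ± 10631 CPM (SD, n = 10) and 24409.8 ± 10321 CPM (SD, n = 7). Within mice it was higher in 5 of 6, and mouse 3 was the exception for this arm as for miR-125b-2-3p. Without the end-point libraries under 75000 counts it was called, with 2.06 and an edgeR adjusted p of 0.0230, and without start-point library 3, its highest at that time point, with 1.82 and 0.0289. It was also called without end-point library 1 or 3 alone, at edgeR adjusted p of 0.0484 and 0.0472.

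Its partner miR-125a-5p was near the limit of the depth. Between 9 and 35 counts were found per library at the start-point and at most 17 at the end-point, where libraries 1 and 3 had 0, with means of 146 ± 51.2 CPM (SD, n = 10) and 62.1 ± 48.3 CPM (SD, n = 7). In CPM without TMM factors all 7 end-point libraries lay below the start-point median of 132 CPM. In TMM-scaled log2 CPM end-point libraries 2 and 4, at 8.060 and 7.650, lay above every start-point library, where the highest was 7.640. Libraries 1, 3 and 7 lay below every start-point library. With TMM factors the log2 fold change was -0.22 ± 0.60 (SE) and the edgeR adjusted p 0.804, and with library totals alone -1.10 and 0.136. Without the end-point libraries under 75000 counts the sign changed, to 0.63 with an edgeR adjusted p of 0.140.

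The 5p arms of the other hairpins were not called either. For miR-125b-5p, start-point libraries ran from 324 to 2154 CPM with a median of 1314 CPM and end-point libraries from 624.6 to 3257 CPM with a median of 1249 CPM. Its log2 fold change was 0.75 ± 0.45 (SE), with an edgeR adjusted p of 0.202. For miR-351-5p it was 0.15 ± 0.74 (SE) with 0.890, and the sign changed with library totals alone, to -0.31. The within-mouse differences of miR-351-5p were the widest of the 7 arms, from -3.42 in mouse 5 to 3.82 in mouse 1.

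The remaining 3p arms had negative fold changes that were not called. In start-point libraries miR-125b-1-3p ran from 181 to 1305 CPM with a median of 487 CPM, and in end-point libraries from 127 to 650 CPM with a median of 183 CPM. Its log2 fold change was -0.53 ± 0.38 (SE), with an edgeR adjusted p of 0.281. Within mice it was lower in 6 of 6, with log2 differences from -0.67 to -0.12, where the 2 end-point libraries of mouse 1 were averaged. These went opposite ways, at -0.66 for library 1 and 0.43 for library 2, and with library 2 alone the count was 5 of 6. The share of all tested smRNAs that were lower in 6 of 6 mice was not counted. For miR-351-3p the log2 fold change was -0.43 ± 0.42 (SE), with an edgeR adjusted p of 0.457, and it was lower in 4 of 6 mice, or in 5 with library 2 alone for mouse 1. The 3p arms of the 2 miR-125b hairpins thus had fold changes of opposite sign under TMM factors and under library totals, where they were 1.45 for miR-125b-2-3p and -1.08 for miR-125b-1-3p. That difference between the arms was not tested.

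**Figure D3:**
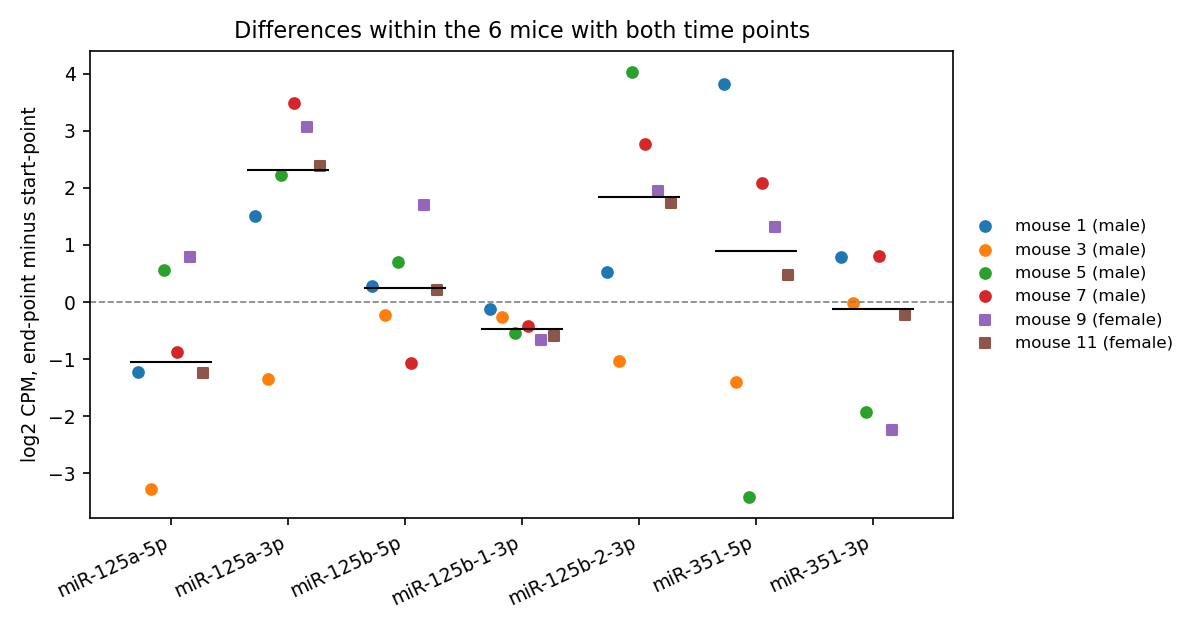
Difference in log2 CPM (TMM-scaled) between end-point and start-point for each arm in the 6 mice with both time points, circles for males and squares for females, with black lines at the median; the 2 end-point libraries of mouse 1 were averaged. In miR-125a-3p and miR-125b-2-3p 5 of 6 mice lie above 0, and in miR-125b-1-3p all 6 lie below 0, mouse 1 only through the average of its libraries, -0.66 and 0.43.

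The 2 other miRNAs with the seed of the 5p arms were far less abundant than miR-351-5p. Start-point libraries held 310 to 3410 CPM of miR-6394 with a median of 1069 CPM, and end-point libraries 43.2 to 804 CPM with a median of 235 CPM. All 7 end-point libraries lay below the start-point median. It fell by 1.92 ± 0.52 (SE) on the log2 scale, with an adjusted p of 0.0070 by edgeR. For miR-6367 the log2 fold change was -0.50 ± 0.52 (SE) with an adjusted p of 0.482 by edgeR. With mouse identity as a block and without the second end-point library of mouse 1, the log2 fold change of miR-6394 was -2.15 with an adjusted p of 0.0546.

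The hairpins lie in clusters with other miRNA genes, which may be transcribed together. Mirlet7e and Mir99b lie 367 and 554 bases from Mir125a, Mir503 and Mir322 lie 630 and 901 bases from Mir351, and Mir100 and Mir99a lie 50421 and 47272 bases from Mir125b-1 and Mir125b-2. Of 23 arms of these neighbours, 16 were in the table and 12 passed the filter. Of the 12, 1 was called higher and 3 lower at the end-point, against 17.4% and 16.3% of all tested smRNAs. The median log2 fold change of the 12 was -0.996. Of the 4 tested neighbours of the Mir125b genes none was called, and let-7c-5p was closest, at -1.49 ± 0.59 (SE) and an edgeR adjusted p of 0.0533.

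Next to miR-125a, both 3p arms of the neighbours fell while the 3p arm of miR-125a itself had a positive fold change that was not called. The 3p arm of miR-99b, a miRNA of the miR-99 and miR-100 family, was at 91.4 to 542 CPM with a median of 253 CPM at the start-point and at 12.4 to 204 CPM with a median of 34.2 CPM at the end-point. It fell by 1.52 ± 0.48 (SE) on the log2 scale, with an edgeR adjusted p of 0.0163. For let-7e-3p, from a hairpin of the let-7 family of differentiation-linked miRNAs, the log2 fold change was -2.01 ± 0.75 (SE) with an edgeR adjusted p of 0.0408. Without start-point library 4 it was -1.27 with an edgeR adjusted p of 0.133. The call was also not made without start-point library 6 or 7 or without any of end-point libraries 1, 2, 4, 5 and 6, at edgeR adjusted p of 0.0541 to 0.0777. The 5p arm let-7e-5p was at 0.92 ± 0.37 (SE) with an edgeR adjusted p of 0.0576, not called. It was the less abundant arm here, with a mean of 171 CPM against 831 CPM for let-7e-3p.

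Next to miR-351, miR-322-3p was the most abundant of all the neighbours, with a mean of 1183 CPM. Start-point libraries ran from 640 to 5353 CPM and end-point libraries from 103 to 557 CPM, with no overlap, as for 5.59% of all tested smRNAs. It fell by 2.28 ± 0.60 (SE) on the log2 scale, with an edgeR adjusted p of 0.00598, and without the end-point libraries under 75000 counts by 1.98 with 0.0575. The next most abundant, miR-542-5p, had a log2 fold change of -1.67 ± 0.73 (SE) with an edgeR adjusted p of 0.0781. The 1 neighbour called higher, miR-503-3p, had 2.33 ± 0.70 (SE) and an edgeR adjusted p of 0.0130. However, its medians were 76.1 CPM and 80.3 CPM, and without end-point library 7, which held 1362 CPM, it had 1.40 and 0.110. With mouse identity as a block none of these 4 neighbour calls was made, at edgeR adjusted p of 0.0670 for miR-99b-3p, 0.754 for let-7e-3p, 0.0712 for miR-322-3p and 0.392 for miR-503-3p.

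**Figure D4:**
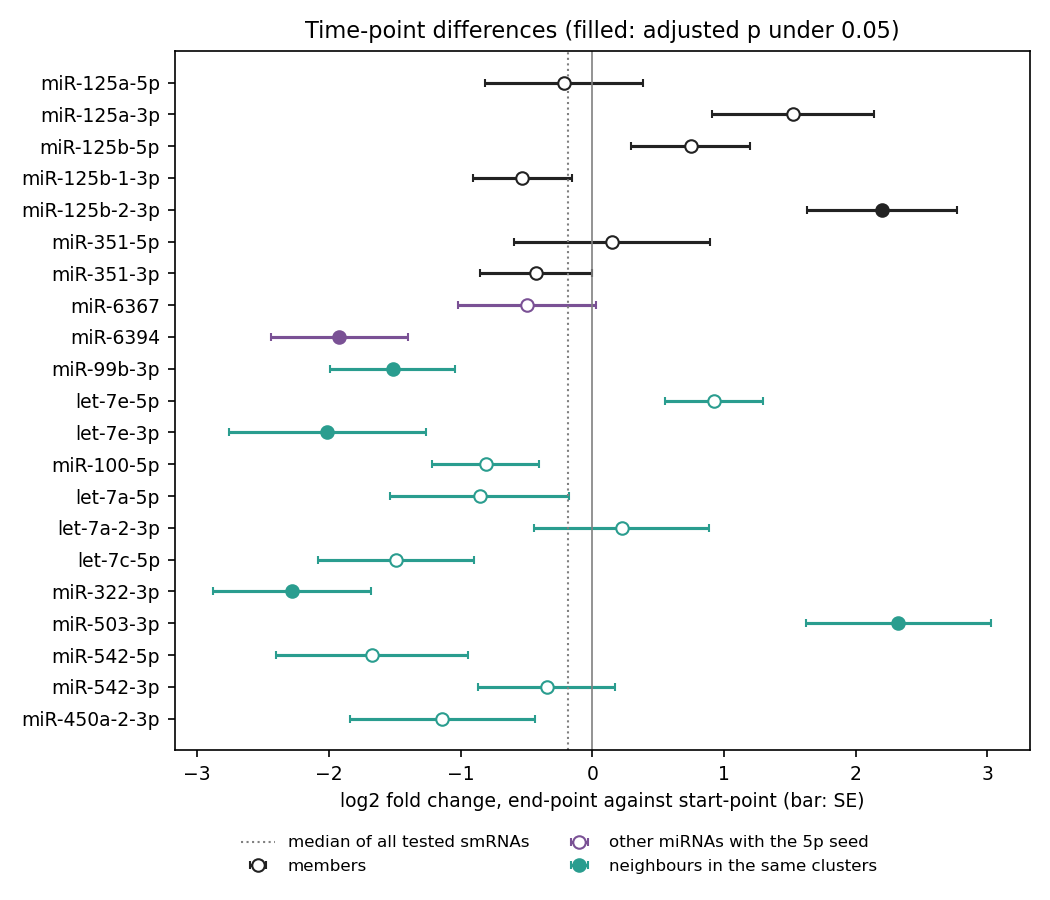
Log2 fold change of end-point against start-point from edgeR with TMM scaling for the 7 arms (black), the 2 other miRNAs with the 5p seed (purple) and the 12 tested cluster neighbours (green); bars are the SE, filled points have an adjusted p under 0.05, and the dotted line is the median of all 1270 tested smRNAs, -0.18. Of the arms only miR-125b-2-3p is filled, at 2.20.

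Over the 17 libraries, the smRNA whose level followed miR-125a-3p most closely was miR-125b-2-3p, the arm with which it shares 12 bases in a row. Spearman's rho of log2 CPM was 0.83, where the median rho of miR-125a-3p with all tested smRNAs was -0.06. The next were let-7e-5p, from the hairpin 367 bases away, with 0.82, and miR-24-1-5p, with 0.77. The rho of miR-125a-3p with its own 5p arm was 0.05, and with miR-351-5p 0.37. Since miR-125a-5p held only 0 to 35 counts per library, a relation between these arms could be missed. The 3 smRNAs most like miR-351-5p were miR-684 with 0.81, miR-3098-5p with 0.78 and miR-149-5p with 0.77, and its rho with miR-351-3p was 0.45. These values are descriptions over libraries that differ in time point and depth and share scaling factors, and the closest smRNAs were picked from 1270, so no p is given. Among the 3 closest to miR-125a-3p, miR-24-1-5p rose by a log2 fold change of 4.54 ± 0.93 (SE) with an edgeR adjusted p of 0.000918, a call that was not made with mouse identity as a block (3.35 and 0.213).

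**Figure D5:**
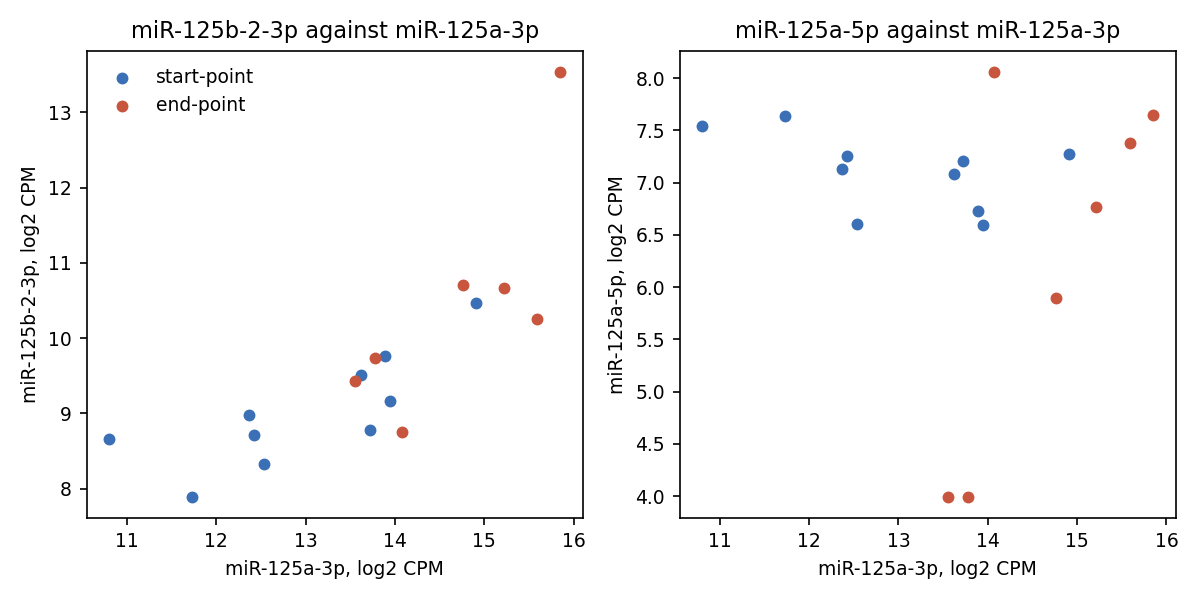
Log2 CPM (TMM-scaled) of miR-125b-2-3p (left) and miR-125a-5p (right) against miR-125a-3p, 1 point per library, start-point in blue and end-point in red. The left panel rises together, with a rho of 0.83, and the right panel shows no such relation, with a rho of 0.05, where miR-125a-5p held only 0 to 35 counts per library.

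Between the sexes, adjusted for time point, no smRNA of 1401 passed edgeR's test (0.00%). At an unadjusted p under 0.05 there were 136 (9.71%), and the DESeq2 Wald test called 35. Both tests treated the 17 libraries as independent, although sex differs only between the 10 mice. None of the 7 arms was called by edgeR. The arm with the smallest p was miR-125b-1-3p, with a log2 difference of 0.77 ± 0.37 (SE) between females and males and an edgeR adjusted p of 0.508. At the start-point it stood at 968 to 1305 CPM in the 3 females and at 181 to 765 CPM in the 7 males. For miR-351-3p the ranges were 548 to 961 CPM and 77.4 to 413 CPM. In CPM without TMM factors, values of the sexes did not overlap for these 2 of the 7 arms, and for 16.4% of all tested smRNAs. The 3 female start-point libraries had TMM factors of 1.48 to 1.92, above those of the 7 male ones, 0.763 to 1.27. In TMM-scaled log2 CPM the sexes overlapped at the start-point for both arms. For miR-125b-1-3p male library 2 stood at 9.27 and female library 9 at 9.22. For miR-351-3p male library 5 stood at 8.69 and female library 10 at 8.24.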

How the data were processed

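Small RNAs were measured in 17 fecal exosome libraries of IL-10 KO mice. Per the labels' protocols the libraries were made with the QIAseq miRNA kit, which carries unique molecular identifiers. The deposited table holds raw counts per smRNA. Per the submitters' processing notes, bcl2fastq and GRCm38 were used. The aligner, the counting tool, the treatment of multi-mapping reads and the use of the identifiers in the counts are not given in the sources used here, so counts of near-identical miRNAs are uncertain, and PCR copies may remain.

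Groups follow the time point in the labels. The members and lists were chosen with earlier results of these data known. Counts were tested with edgeR 4.0.16 in R 4.3.3 (glmQLFit of the version 4 method, filterByExpr, TMM, Benjamini-Hochberg), and alternatives used DESeq2 1.42.0 and limma 3.58.1. SEs were derived from the F statistic. Printed CPM are counts over the library total, and log2 CPM were TMM-scaled with a prior count of 2. Arm ratios were tested for pairs whose arms summed to at least 10 counts in at least 10 libraries. A numbered arm was paired with the unnumbered opposite arm. The named smRNAs are the 7 arms, neighbours past the threshold and the 2 most abundant ones, miRNAs sharing a seed, and the 3 most alike. Cell type miRNAs are named where 1 of them made up most of the highest sum of its list or of the leukocyte sum of end-point library 4. Pairs were formed by the mouse number that the labels give, and deviations of same-mouse libraries correlated at 0.094 on average. Libraries of a group came from different mice, except the 2 end-point libraries labelled mouse 1. All 7 arms matched a RefSeq sequence. The tests were run on simulated data with independent libraries, where arm ratios had the same SD in both groups and were not drawn from counts. These runs do not cover repeated mice or arms with few counts.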

Additional observations from a re-analysis of the deposited data

Results flagged for a closer look

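In 22 checks of the 7 arms and 4 arm ratios in the 2 groups, 4 held a library far from the others of its group. A chance rate of about 1 in 20 holds only for normally distributed values. The arms were checked on untransformed CPM, so 4 of 22 is not read as an excess. At the end-point, library 4 held 6597 CPM of miR-125b-2-3p. In TMM-scaled log2 CPM it stood at 13.5 against 8.75 to 10.7 in the other end-point libraries. At the start-point, library 3 held 1559.8 CPM of the same arm and library 2 held 78273 CPM of miR-351-5p. In log2 CPM library 3 stood at 10.5 against 7.89 to 9.76 in the other start-point libraries. Library 2 stood at 15.9 against 10.4 to 14.7. The log2 ratio of 3p to 5p counts of miR-125b-1 was 2.00 in start-point library 10, the library with the fewest counts of miR-125b-5p at that time point.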

How the results depend on the processing

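The time point test called 428 smRNAs, and 104 with mouse identity as a replicate block, 85 with that block and without the second end-point library of mouse 1, and 211 in male libraries only. Leaving out single libraries gave 365 to 463. The test of sex called 0, and 1 with library totals only, 35 with the DESeq2 Wald test and 0 to 1 without single libraries. The arm ratio test called 110 pairs, 70 when both arms had to sum to at least 10 counts in every library, 31 in male libraries only, and 0 with mouse as a block, where 6 mice allow no p under 0.0312. Without single libraries it called 94 to 122.

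Higher calls were 51.6% of all calls with TMM factors, 31.9% with library totals only and 33.7% with limma-voom. The call of miR-125b-2-3p was made in 9 of 12 alternatives, with edgeR, DESeq2 or limma adjusted p from 0.00120 to 0.145, and was missed by limma-voom at 0.0507. Without single libraries its log2 fold change was 0.97 to 2.44. The alternatives placed the adjusted p of miR-125a-3p between 0.0194 and 0.266, with 5 of 12 calls. The arm ratio of miR-125a kept its call without each single library, at differences of 2.39 to 3.21, and was called in 2 of 6 other alternatives.

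Signs changed for miR-351-5p with library totals only (-0.31) and in male libraries only (-0.59), and without end-point libraries under 75000 counts for miR-125a-5p (0.63) and miR-6367 (0.0426). Without single libraries miR-351-5p ranged from -0.13 to 0.83 and miR-125a-5p from -0.65 to 0.10. For female against male, library totals only gave 0.55 for miR-125a-5p, 0.38 for miR-125a-3p and 0.29 for miR-125b-5p, against -0.21, -0.13 and -0.07, and start-point libraries only gave -0.58 for miR-351-5p. Without single libraries these ranged from -0.46 to 0.0526, from -0.41 to 0.11 and from -0.73 to 0.32. The cause of these changes was not tested. Depth limits miR-125a-5p most, with 0 to 3 counts in the end-point libraries under 75000 counts. The older edgeR quasi-likelihood method was added as an alternative after seeing the data.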
